A study of Mus musculus with 289 samples.

Results

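The cells described here are the astrocytes labelled no-gRNA that had a column in the count tables of batch 1, batch 3 or batch 5. They were taken by that label and by the batch, with no use of their expression, and there were 60 of them (31 in batch 1, 6 in batch 3 and 23 in batch 5) among 289 labelled samples. The study placed guide RNAs against the transcription factors Sox9 and Trps1 in cortical astrocytes of adult transgenic mice that express Cas9, by means of a lentivirus made to act in astrocytes. The 60 cells carry the label Adult in place of a day after injection, come from brain, and share the Cas9 transgene with the other samples. The labels do not say whether a virus was injected into their animals. Each was drawn up with an electrophysiology pipette and made into its own Smart-seq2 library, a full-length protocol without molecular identifiers, so reads are not independent molecules and every interval below covers counting error only. In-slice controls, labelled as holding no cell, are the background: 4 libraries of day 7 in batch 3 and 5 libraries of day 21 in batch 5, with none in batch 1. No label names an animal, so cells are not replicates, each batch is 1 pool, and all values below are descriptions with no test of a condition.

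Astrocytes are the glial cells that clear glutamate from the synaptic cleft, buffer potassium, supply lactate and cholesterol to neurons, and cover blood vessels and synapses with fine processes. In the adult cortex they do not normally divide, and injury moves them to a reactive state marked by intermediate filament and inflammatory genes. Immediate-early genes such as Fos code for transcription factors whose messages rise within minutes of calcium or growth factor signals.

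The 6 marker genes chosen for astrocytes were read in nearly all of the cells. All 6 had a read in 28 of 31 cells of batch 1, 4 of 6 cells of batch 3 and 21 of 23 cells of batch 5, and no cell had a read in fewer than 4. Levels are given as CPM, the reads of a gene per 1e6 reads in nuclear genes of the same cell. Slc1a2, the main glutamate transporter of the forebrain, was read in all 60 cells. Its lowest, median and highest values were 8.08, 2544 and 8482 CPM in batch 1, 506, 2081 and 4106 CPM in batch 3, and 148, 2328 and 4678 CPM in batch 5. The in-slice libraries reached at most 354 CPM in batch 3 and 117 CPM in batch 5, below every no-gRNA cell of the same batch. Slc1a3, the second glutamate transporter of astrocytes, was also read in all 60 cells. Its median was 1427 CPM in batch 1 (range 0.853 to 9544), 1546 CPM in batch 3 (190 to 3957) and 2228 CPM in batch 5 (102 to 8084). In-slice libraries reached 13.2 CPM in batch 3, below every cell, and 467 CPM in batch 5, above the lowest cells. Aldoc, the brain form of the glycolytic enzyme aldolase, had medians of 2969, 1790 and 2610 CPM in batches 1, 3 and 5, with lowest cells at 4.78, 548 and 4.44 CPM. It was read in every in-slice library, up to 305 CPM in batch 3 and 3393 CPM in batch 5, so in batch 5 the in-slice libraries overlapped the cells.

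The other markers had lower in-slice values, but were absent from more cells. Mfge8, a secreted factor that tags material for uptake by phagocytes, was read in 30, 5 and 23 cells of the batches, with medians of 1305, 808 and 3042 CPM. Htra1, a secreted serine protease, was read in 29, 4 and 21 cells, with medians of 1094, 311 and 1639 CPM. Bcan, the matrix proteoglycan brevican, was read in 31, 6 and 22 cells, with medians of 1063, 645 and 1685 CPM. None of these passed 16.3 CPM in any in-slice library. In batches 1 and 5 each marker stood at 100 CPM or more in most cells, which fits the labelled cell type, and in batch 3 so did all but Htra1.

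**Figure D1:**
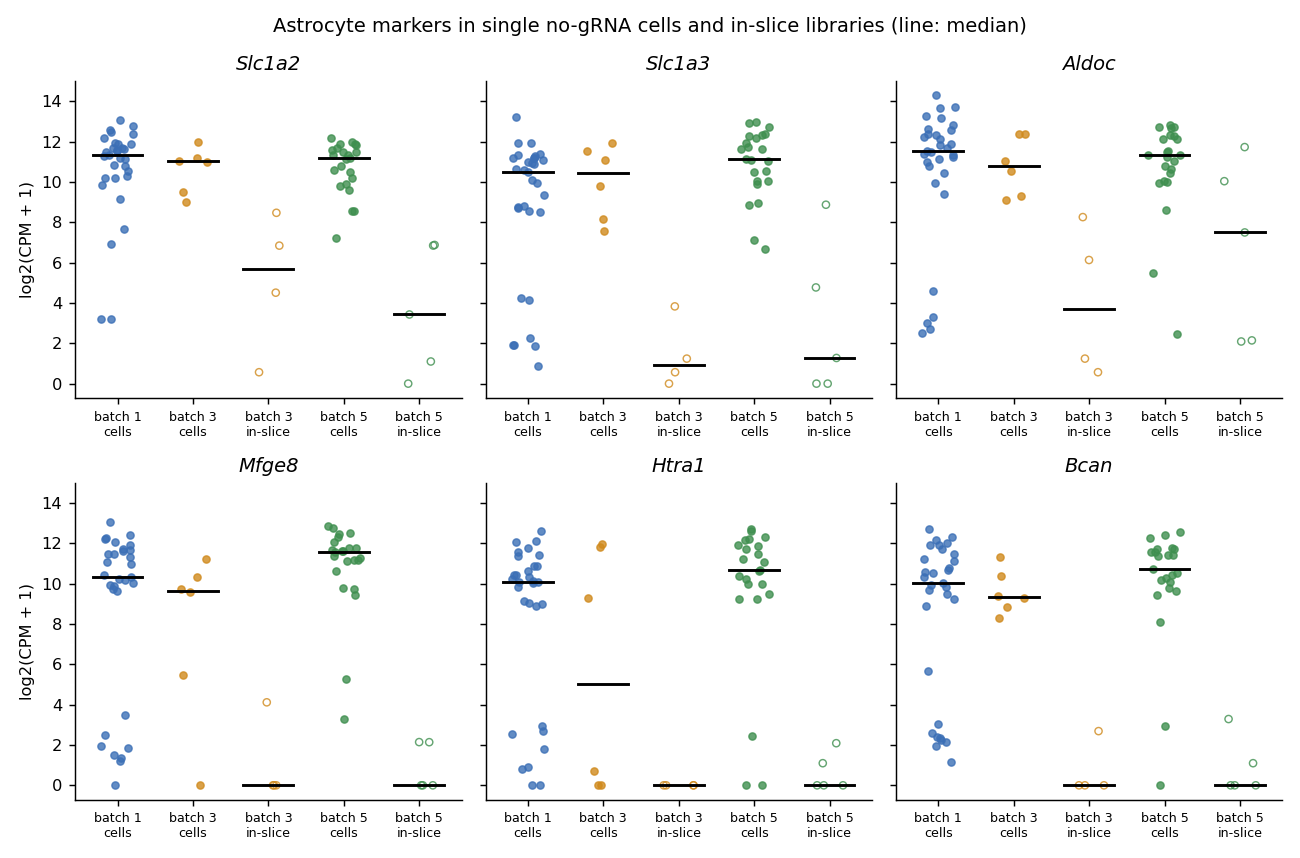
Each panel plots log2(CPM + 1) of an astrocyte marker for every no-gRNA cell (filled points) and every in-slice library (open points) of a batch, with the median as a line. Most cells lie high, and in batch 1 a separate lower set of 7 to 9 cells, under 100 CPM, shows for Slc1a3, Mfge8, Htra1 and Bcan, while the in-slice libraries have lower medians and, in batch 5, overlap the lowest cells for every marker but Slc1a2 and Mfge8.

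In batch 1 the markers split the cells: a cell mostly held a gene well above 100 CPM or nearly lacked it. Counting the markers at 100 CPM or more, a level chosen after the values were seen, all 6 reached it in 16 of 31 cells of batch 1, 3 of 6 cells of batch 3 and 20 of 23 cells of batch 5. The lowest number in any no-gRNA cell was 2, in 5 cells of batch 1 and 1 cell of batch 5, and no in-slice library had more than 2. In batch 1, Slc1a2 fell short of 100 CPM in 2 cells, Aldoc in 5, Slc1a3 in 7, Mfge8 in 8, Htra1 in 8 and Bcan in 9. These were partly different cells, since 15 cells lacked at least 1 marker at that level and none lacked more than 4. In batch 5 the same counts were 0 for Slc1a2 and Slc1a3, 2 for Aldoc, Mfge8 and Bcan, and 3 for Htra1.

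The cells with fewer markers had the higher median share of ribosomal RNA in each batch, with ranges that overlapped in batches 1 and 5. Although the labels name polyA RNA, a single row, CT010467.1 (GRCm38 17:39846353-39848827, minus strand, annotated as an rRNA gene), took nearly all of the ribosomal RNA reads and was the largest row of the tables. Ribosomal RNA genes held a median of 41.4% of nuclear gene reads in batch 1 (3.58% to 79.2% over cells), 42.9% in batch 3 (28.4% to 79.4%) and 30.8% in batch 5 (9.28% to 81.4%). Across the 16 cells of batch 1 with all 6 markers at 100 CPM the median share was 22.5% (3.58% to 54.2%), against 63.3% (20% to 79.2%) in the other 15. In batch 3 the medians were 35.2% and 79.2% over 3 and 3 cells, and the ranges did not overlap. In batch 5 they were 29.4% (9.28% to 71.2%) over 20 cells and 71.7% (65.3% to 81.4%) over 3. With ribosomal RNA genes left out of the totals, a choice made after the values were seen, the median of Slc1a2 became 4028, 3529 and 3453 CPM in batches 1, 3 and 5, and its lowest cell 14.9, 2453 and 426 CPM. The cells with fewer markers also had lower median numbers of genes with a read: 2615, 1798 and 2109 in batches 1, 3 and 5. The cells with all 6 markers had 4042.5, 5214 and 5632, and the ranges overlapped in each batch. The part of ribosomal RNA or of gene number in the missing markers was not tested beyond these values.

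Lars2, which codes for the mitochondrial leucyl-tRNA synthetase, moved with that share. It was read in all 60 cells and had the smallest mean SD of the regularly detected protein-coding genes named by rule, with an SD over cells of log2(CPM + 1) of 1.46 in batch 1, 1.34 in batch 3 and 0.97 in batch 5. Over the cells of a batch, Spearman's rho of Lars2 as CPM outside ribosomal RNA genes with the ribosomal RNA share was 0.91 in batch 1 (31 cells), 0.89 in batch 3 (6 cells) and 0.81 in batch 5 (23 cells). For Gm15564, a row annotated as antisense, it was 0.91, 0.71 and 0.84, whereas for Slc1a2 it was 0.04, -0.26 and -0.23. These are descriptions over cells that share a library protocol and a total. Lars2 was also in all 9 in-slice libraries, up to 24519 CPM, so a high level of Lars2 did not need a cell.

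**Figure D2:**
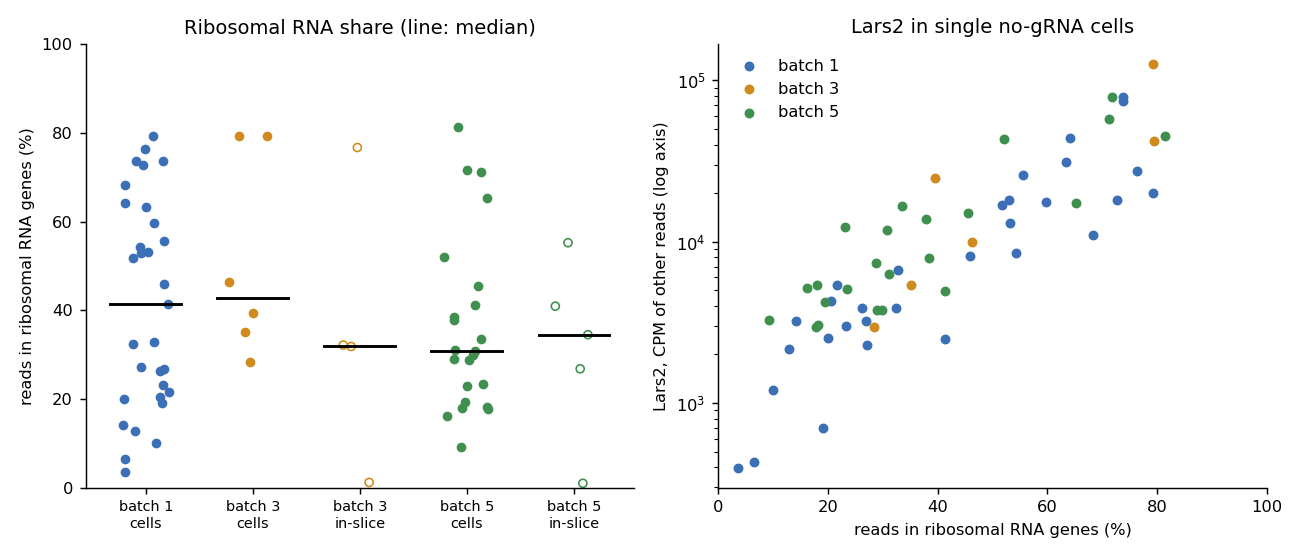
The left panel plots the percentage of nuclear gene reads in ribosomal RNA genes for every no-gRNA cell (filled) and in-slice library (open), with medians as lines; the right panel plots Lars2 as CPM outside ribosomal RNA genes (log axis) against that percentage for the cells. The share runs from 3.58% to 81.4% over the cells, and Lars2 is higher where the share is higher in all 3 batches.

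Depth and gene number set the limits of what follows. Reads in nuclear genes per cell ran from 351044 to 1607720 in batch 1 (median 1070380), from 15799 to 1521560 in batch 3 (median 228532) and from 109375 to 959602 in batch 5 (median 795811). After each cell was thinned to 100000 reads, which left out 3 cells of batch 3, the median number of genes with a read was 1597 in batch 1 (594 to 4741), 4581 in batch 3 (3 cells) and 3654 in batch 5 (785 to 7005). Without thinning the medians were 2882, 2026 and 4979 genes. The 100000 reads include ribosomal RNA reads, so cells with a larger ribosomal RNA share kept fewer other reads. With ribosomal RNA genes left out before thinning, a choice made after seeing the data, the medians were 2347, 4748 and 4122.5 genes. That left out 3 cells of batch 3 and 1 of batch 5. Detection shares after thinning carry the same limit. Reads in mitochondrial genes were a median of 0.890%, 1.55% and 2.78% of gene reads. Batch 3 has 6 cells, so the median of a gene read in 3 of them lies midway between 0 and the lowest of those 3. Such a median is not the level of any cell. A pair of batch 5 libraries stood apart: cells 10 and 14 had a Spearman's rho of 0.94 over 10215 genes and shared 81.3% of the genes read in either, against 0.44 and 51.2% for the next pair of that batch. The chi-square of their counts averaged 1.70 per gene over 4076 genes, where sampling noise alone gives 1, and 46.5 in the next pair. Reads are not independent molecules, so a value above 1 cannot show that these were 2 separate cells. Both were kept because each has its own label, and a shared source was not tested. Without 1 of them, a choice made after seeing the data, the count of regularly detected genes given below was 49 as with it, and genes past the fold in batch 5 numbered 628 against batch 1 and 1184 against batch 3.

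Cst3, Apoe, Clu and Fos were the 4 most abundant protein-coding genes when each gene was ranked by its lowest batch. Levels of different genes are compared per length, as TPM, here reads per summed exon length scaled to a fixed total within a cell and averaged over the cells of a batch. The ribosomal RNA row takes 450833, 579320 and 396461 TPM in batches 1, 3 and 5, so that all other TPM values are low by that share. Cst3 codes for cystatin C, a secreted inhibitor of cysteine proteases, and its mean was 10277, 7104 and 9348 TPM in batches 1, 3 and 5. It was read in all 60 cells, at 4.04 to 25138 CPM in batch 1, 760 to 4143 CPM in batch 3 and 80.4 to 9505 CPM in batch 5. Apoe, the main lipoprotein of the brain, followed with 8997, 5030 and 13829 TPM and was also read in every cell, never below 35.8 CPM. In the in-slice libraries both were present in all 9, with medians of 3229 CPM for Cst3 and 3210 CPM for Apoe in batch 3, so a read of either gene does not separate a cell from its surroundings. Clu, the lipid-binding chaperone clusterin, ranked next with 2662, 2482 and 2939 TPM. Its in-slice median was 6.91 CPM in batch 3 and 4.56 CPM in batch 5, against 3629 and 3829 CPM in cells. It was still read in 8 of 9 in-slice libraries, up to 797 CPM in batch 5, above the lowest cells of that batch.

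Metabolic and antioxidant genes filled much of the rest of the 20 most abundant protein-coding genes that the naming rule given at the end admits. Actb, which that rule leaves out, had 1336, 1142 and 1634 TPM, above Ldhb and Gstm1 by its lowest batch. Aldoc had 3837, 2316 and 2731 TPM. Ckb, the brain creatine kinase that regenerates ATP, had 1734, 1797 and 2946 TPM. Ldhb, the lactate dehydrogenase subunit that favours pyruvate, had 1125, 1015 and 1393 TPM. These 3 were regular as well as abundant, being read in 60, 60 and 58 cells. Gstm1, a glutathione transferase, had 1287, 909 and 1504 TPM. Cox8a, a subunit of cytochrome c oxidase, had 1616, 1465 and 2803 TPM. Selenow, a small selenoprotein, had 1327, 1233 and 3040 TPM, and its in-slice median of 1191 CPM in batch 5 was above that of the cells. Metallothioneins Mt1 and Mt3, which bind zinc and copper, had 4384, 2488 and 1192 TPM and 1500, 939 and 1436 TPM. Mt1 was thus higher in batch 1 than in batch 5, by 2.01 on the log2 scale of mean CPM + 5, without passing the rule for a fold between batches given below.

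Surface, secreted and matrix genes made up most of the remainder. Of the others, Lars2 had 1314, 2549 and 1702 TPM, and Junb had 1918, 1022 and 1236 TPM. Gpr37l1, an orphan receptor of astrocytes, had 2679, 2336 and 4746 TPM and was read in all 60 cells, against at most 4.41 CPM in any in-slice library. Sparcl1, a matrix protein that acts on synapse formation, had 1947, 1674 and 2973 TPM. Plpp3, a phosphatase of lipid messengers, had 1345, 1356 and 1500 TPM, the most even of the 20 between batches. Prnp, the prion protein, had 1200, 1673 and 2692 TPM. Sat1, which acetylates polyamines, had 1208, 2214 and 1237 TPM. Htra1 had 1451, 1516 and 2516 TPM, although it was not read in 6 of the 60 cells.

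**Figure D3:**
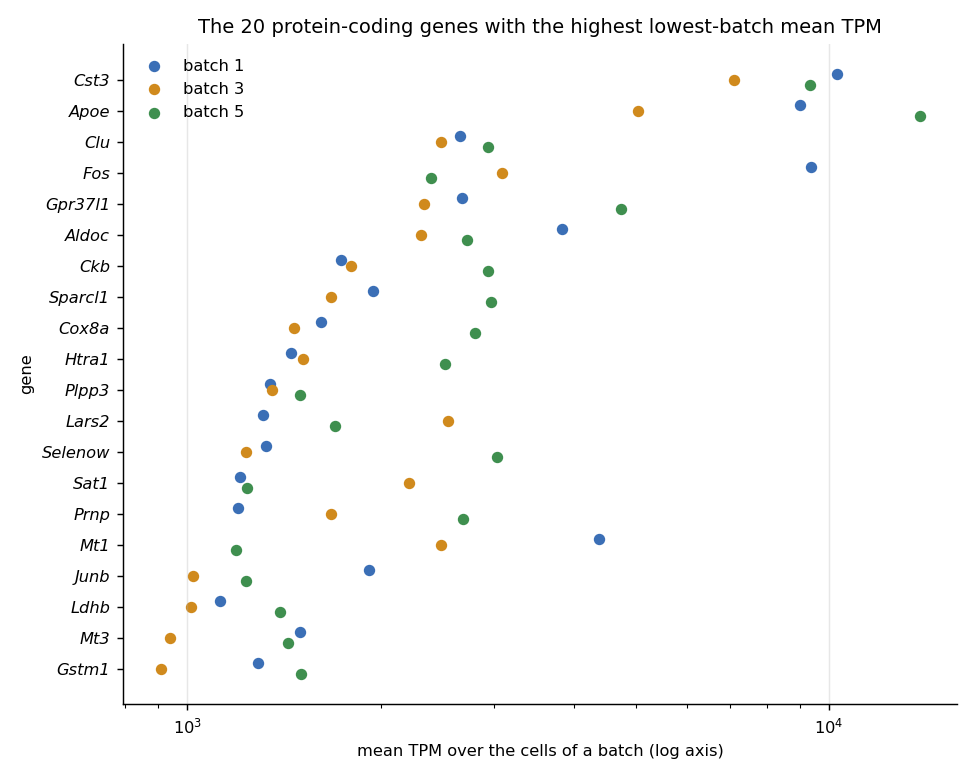
The plot gives the mean TPM over cells (log axis) of the 20 protein-coding genes admitted by the naming rule with the highest level in their lowest batch, 1 point per batch. Actb, which that rule leaves out, would otherwise stand among them with 1336, 1142 and 1634 TPM. Cst3 and Apoe lie at 5030 TPM or more in all batches, Fos and Mt1 are highest in batch 1, and Gstm1 has the lowest point, 909 TPM in batch 3.

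The lists of the 3 batches overlapped at the top. Of the 100 genes with the highest mean TPM, batches 1 and 3 shared 64, batches 1 and 5 shared 67, batches 3 and 5 shared 67, and all 3 shared 56. Among the 56 were 51 protein-coding genes and no ribosomal protein gene, and 31 of them were also regularly detected. Below the top, agreement was weaker. Across the 10215 genes at 5 CPM or more in the mean of the batches, Spearman's rho of mean CPM was 0.32 between batches 1 and 3, 0.53 between batches 1 and 5 and 0.43 between batches 3 and 5. Genes are not independent replicates, so these values carry no test.

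Few genes were read in nearly every cell. A gene was called regularly detected where 1 read or more was found in at least 90% of the cells of each batch, and 49 genes were, or 0.228% of the 21483 genes with a row in every table (45 protein coding, 0 ribosomal protein genes). Of these, 20 were read in every cell. With 50% of cells asked in place of 90%, 888 genes passed, or 4.13%. The count rested on batch 3 and its shallow cells: it was 106 without batch 3 and 92 without cells under 100000 reads. Of the 34 other astrocyte identity genes, which the list took as background knowledge, 12 were regular and 28 passed the 50% rule. The 6 that did not were S100b, Gfap, Aldh6a1, Fjx1, Paqr6 and Pla2g7.

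The regular genes fell into a few groups. Astrocyte genes among them were Aldoc, Apoe, Clu, Cst3, Ntsr2, Gpr37l1, Cpe, Plpp3, Prdx6, Mt1, Mt3, Bcan, Slc1a2, Slc1a3, Sparcl1 and S1pr1. Prdx6, an antioxidant enzyme, was read in all 60 cells, with medians of 1230, 1327 and 919 CPM and at most 40.9 CPM in an in-slice library. Ntsr2, the neurotensin receptor of astrocytes, and S1pr1, a receptor for sphingosine 1-phosphate, were each read in 57 cells. Ntsr2 had medians of 815, 560 and 1526 CPM, and S1pr1 548, 1141 and 814 CPM. Tspan7, a membrane scaffold protein, was read in all 60, with medians of 797, 1439 and 2445 CPM. Immediate-early genes among them were Fos, Junb and Egr1. A further group was of genes abundant in neurons or in all cells, and for several of these the in-slice libraries were higher than the cells.

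Nrgn, the calmodulin-binding neurogranin of neuronal dendrites, was read in 59 of 60 cells with medians of 93.8, 59.3 and 165 CPM. The in-slice medians were 480 CPM in batch 3 and 436 CPM in batch 5. Camk2n1, an inhibitor of the neuronal kinase CaMKII, had cell medians of 224, 291 and 207 CPM, against 1653 and 991 CPM in the in-slice libraries. Calm2, which codes for the calcium sensor calmodulin, followed the same order in batches 3 and 5: its cell medians were 331 and 722 CPM and its in-slice medians 1288 and 2490 CPM. Nrgn and Camk2n1 were also among the 10 with the smallest spread between cells of the regular protein-coding genes that the naming rule admits, as were Lars2, Apoe, Slc1a2, Cst3, Ckb, Mt3 and Mt1. Rows with a smaller mean SD than Nrgn that the list leaves out were CT010467.1, Gm15564, Fth1, Actb and Malat1.

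The spread between cells was large for most genes. The median SD of log2(CPM + 1) over the 49 regular genes was 3.15 in batch 1 (1.12 to 4.34), 1.72 in batch 3 (0.62 to 3.36) and 2.17 in batch 5 (0.79 to 3.57). The 10 regular protein-coding genes with the widest spread were Ctsb, Ntsr2, Gpr37l1, Gria2, Ncam1, Clu, Mgll, Plpp3, Son and Prnp. Gpr37l1, with an SD of 4.34 in batch 1, ran from 0.796 to 10970 CPM there, and after thinning it was found in 77.4% of cells. Clu had an SD of 3.64 in batch 1 and 3.38 in batch 5, with cells from 1.52 to 14951 CPM in batch 1. Gria2, a subunit of the AMPA glutamate receptor, ran from 0 to 3092 CPM in batch 1 with an SD of 3.69. Between cells, the median Spearman's rho over 10215 genes at 100000 reads was 0.16 within batch 1, 0.20 within batch 3 (3 pairs) and 0.25 within batch 5. It was 0.16 between cells of batches 1 and 3, 0.17 between batches 1 and 5 and 0.22 between batches 3 and 5. Over these genes, only pairs within batch 5 had a median above those with both other batches. Over the 49 regular genes alone the medians were 0.41, 0.71 and 0.61 within batches 1, 3 and 5. Between batches they were 0.55 for 1 and 3, 0.41 for 1 and 5 and 0.62 for 3 and 5.

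Genes of glutamate handling were led by Slc1a3, Glul and Slc1a2. Of the 16 members of this list, 9 were read in at least 50% of the cells of every batch and 2 in at least 90%, against 4.13% and 0.228% of all genes. Glul, the enzyme that turns glutamate into glutamine, was read in 57 cells with medians of 356, 379 and 452 CPM and with means of 544, 529 and 552 CPM, nearly the same in every batch. It was also in 8 of 9 in-slice libraries, up to 2417 CPM. Slc7a10, a transporter of small neutral amino acids, was read in 50 cells (29, 3 and 18) with medians of 97.1, 249 and 265 CPM, and in 1 in-slice library at 1.7 CPM. Slc38a3, a glutamine transporter, was read in 50 cells, and its median was 1.52 CPM in batch 1 against 515 and 514 CPM in batches 3 and 5. Its means of 681, 946 and 718 CPM hid this, because a part of the batch 1 cells held it at up to 2950 CPM.

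Potassium, water and gap junction genes were common but none was regular. Of 18 members, 13 passed the 50% rule and 0 the 90% rule, against 4.13% and 0.228% of all genes. The count of 0 at 90% thus does not set the list apart. Atp1b2, a beta subunit of the sodium pump, was read in 58 cells, with medians of 741, 1546 and 1234 CPM. Gja1, the gap junction protein connexin 43, was read in 54 cells with medians of 481, 266 and 1893 CPM. Gjb6, connexin 30, was read in 53 with medians of 203, 262 and 640 CPM. Aqp4, the water channel of endfeet, was read in 45 cells, with medians of 116, 0.41 and 277 CPM. Kcnj10, the inward rectifier potassium channel Kir4.1, was read in 44, with medians of 1.87, 292 and 104 CPM. Both channels were thus found in fewer cells than Atp1b2.

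Other functions followed the same order, with a few members in most cells and many in few. Of 24 cholesterol, fatty acid and lipoprotein genes 13 passed the 50% rule, of 24 matrix and synapse-acting genes 9, of 25 surface receptors 8, of 18 glycogen, glucose and lactate genes 7, and of 9 GABA genes 3. Of all genes, 4.13% passed it. Acsbg1, an acyl-CoA synthetase, was read in 56 cells with medians of 849, 376 and 962 CPM. Slc6a11, a GABA transporter of astrocytes, was read in 32 cells, with medians of 0.93, 16.5 and 1.16 CPM. Ntrk2, the receptor for brain-derived neurotrophic factor, was read in 56 cells with medians of 122, 514 and 1290 CPM.

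Sox9 and Trps1, the factors that the guides of the study target, were left intact in these cells as far as the labels say. Sox9, a factor of glial fate, was read in 54 of 60 cells, or 90%: 29 in batch 1, 5 in batch 3 and 20 in batch 5. The lowest, median and highest values were 0, 134 and 2353 CPM in batch 1, 0, 256 and 929 CPM in batch 3, and 0, 263 and 1093 CPM in batch 5. Pooled over cells this was 532 CPM (524 to 540, exact Poisson interval), 389 CPM (368 to 411) and 320 CPM (312 to 329). Without the highest cell of each batch, an alternative added after seeing the data, pooled Sox9 was 467, 320 and 277 CPM, below each interval. The intervals cover counting error only and do not compare the batches. Only 1 of 9 in-slice libraries held a Sox9 read, at 0.48 CPM, whereas all 9 held Cst3 and Apoe. Trps1, a repressor of the GATA family, was read in 36 of 60 cells, or 60%: 16, 3 and 17. Its medians were 0.76, 23.4 and 13.1 CPM and its highest cells 671, 277 and 770 CPM, and pooled levels were 97.6 CPM (94.2 to 101), 111 CPM (99.4 to 123) and 95.3 CPM (90.7 to 100.04). These pooled levels rested on few cells: cell 2 gave 340 of the 358 Trps1 reads of batch 3, and without the highest cell of each batch, an alternative added after seeing the data, they were 75, 8.94 and 62.0 CPM. Within batch 5, Trps1 was past the fold rule given below in cells whose titles begin with AG, with a mean of 179 CPM against 32.7 CPM in those that begin with 2AG (1.06% of all genes were). Of 27 transcription factors of astrocytes 10 passed the 50% rule, as did 4.13% of all genes. Id2, an inhibitor of basic helix-loop-helix factors, came next to Sox9 with means of 714, 202 and 593 TPM.

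Genes of the reactive state were read in few cells. Of 24 members 1 passed the 50% rule, where 4.13% of all genes did, so that count does not set the list apart. The median member was read in 5% of cells, against 26.7% for all genes at 5 CPM or more, a level not asked of the list. Steap4 and Tgm1 were at 0 in all 60 cells. Gfap, the intermediate filament most used to mark reactive astrocytes, was read in 33 of 60 cells (20, 2 and 11), or 55%, with medians of 0.88, 0 and 0 CPM and highest cells at 1134, 357 and 1742 CPM. Vim, another intermediate filament, was read in 15 cells, at most at 279 CPM, and Lcn2, a secreted lipocalin of strongly reactive cells, in 3, at most at 47.5 CPM. Serpina3n, a protease inhibitor, led the list with 158, 529 and 152 TPM and was read in 37 cells. Few members could be compared between batches by the fold rule given below, and they went both ways. Of 5 between batches 1 and 3, Cd44 was higher in batch 1 (4.4% of all genes were) and Stat3 in batch 3. Of 6 between batches 3 and 5, Stat3 and Osmr were higher in batch 3 and Vim in batch 5 (16.6% were), and of 6 between batches 1 and 5 none was called. Stat3, a signal transducer of cytokine receptors, was past it in batch 3 against both others, where 5.62% and 1.98% of genes were. It was read in 3 of 6 cells there. Its batch 3 median of 438 CPM is therefore the midpoint between 0 and the lowest of those 3 cells, not a typical level. The medians were 0 CPM in batch 1 and 2.33 CPM in batch 5. Cell cycle genes were read in fewer cells still, with the median member in 1.67%. Of 18 members 0 passed the 50% rule and 7 were at 0 in all cells, among them Mki67. For Mki67, 3 counts of the pooled reads allow up to 0.0956, 0.926 and 0.177 CPM in batches 1, 3 and 5.

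Fos led the list of immediate-early and stress genes, whose members differed widely. Of 23 members 9 passed the 50% rule and 3 the 90% rule, against 4.13% and 0.228% of all genes. The median member was read in 51.7% of cells, against 26.7% for all genes at 5 CPM or more, and Hspa1b was at 0 in all 60. Fos, which codes for a subunit of the AP-1 transcription factor, was read in 59 of 60 cells and was among the 4 most abundant protein-coding genes by its lowest batch. Its lowest, median and highest values were 5.26, 7473 and 26492 CPM in batch 1, 621, 1415 and 5771 CPM in batch 3, and 0, 1289 and 6142 CPM in batch 5. The in-slice libraries reached 23.4 CPM in batch 3, below every cell, and 703 CPM in batch 5. The other AP-1 and zinc finger factors followed. Egr1 had medians of 1930, 690 and 457 CPM, Jun 2290, 318 and 324 CPM, and Junb 1056, 748 and 818 CPM. Nr4a1, an orphan nuclear receptor, had medians of 1452, 1289 and 712 CPM and was read in 57 cells. Summed over the 23 members of the list, cells held a median of 21105 CPM in batch 1 (74.0 to 54054), 5856 CPM in batch 3 (2795 to 21445) and 6811 CPM in batch 5 (99.8 to 17966). In-slice sums reached 8366 CPM in batch 3 and 3771 CPM in batch 5, with medians of 700 and 1100 CPM. The batch 1 median was the highest, but the ranges overlapped. Of 17 members compared with batch 5 by the fold rule given below, 1 was higher in batch 1 (0.877% of all genes were): Fosb, a further AP-1 subunit, with medians of 29.5 and 0 CPM. Fos, higher in batch 1 by 2.04 on the log2 scale of mean CPM + 5, was not called, as detection after thinning was 100% and 91.3%. Of 20 members compared between batches 1 and 3, 0 were higher in batch 1 (4.4% of all genes were) and 2 in batch 3 (5.62% were). Of 20 between batches 3 and 5, 1 was higher in batch 3 (1.98% were) and 0 in batch 5 (16.6% were).

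Sequence upstream of the genes of this list was examined because it held Fos and Junb, which are both abundant and regular. Of the 23 members, 20 had at least 1 window in the RefSeq table of GRCm38.p6 (Egr1, Egr3 and Ier2 had none), and the 250 bases before each gene start were searched on both strands for TATAAA (the TATA box), TGACGTCA (the cyclic AMP response element) and the CArG box that serum response factor binds. TATAAA was found for 3 of the 20 (15%, against 14.3% of 27025 genes), TGACGTCA for 2 (10%, against 1.77%) and the CArG box for 2 (10%, against 1.62%). The windows of this list held a median of 17 CG pairs, against 6 over all windows. TGACGTCA holds a CG pair, and the shares are not matched for this. Of 32 regularly detected genes with a window, 8 (25%) held TATAAA and 0 held TGACGTCA or the CArG box. A CArG box, CC then any 6 of A or T then GG, can hold TATAAA within it. The 180 bases before the start of 4 members that hold a match are printed 5′ to 3′ on the gene's strand, with the match in capitals:
Fos (GRCm38.p6, chr12:85473710-85473889, plus strand, TATAAA): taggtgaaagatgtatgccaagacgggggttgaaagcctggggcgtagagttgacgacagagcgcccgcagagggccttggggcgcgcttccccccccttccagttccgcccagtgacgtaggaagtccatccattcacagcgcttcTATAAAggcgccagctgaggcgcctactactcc
Dusp1 (chr17:26508473-26508652, minus strand, TGACGTCA): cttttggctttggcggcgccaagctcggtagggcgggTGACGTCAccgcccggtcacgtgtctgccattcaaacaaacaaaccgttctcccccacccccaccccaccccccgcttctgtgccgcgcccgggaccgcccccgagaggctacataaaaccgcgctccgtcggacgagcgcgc
Btg2 (chr1:134079156-134079335, minus strand, TGACGTCA): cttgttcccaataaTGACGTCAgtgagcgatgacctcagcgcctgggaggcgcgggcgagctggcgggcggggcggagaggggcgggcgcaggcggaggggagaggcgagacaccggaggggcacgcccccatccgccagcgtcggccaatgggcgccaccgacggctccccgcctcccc
Zfp36 (chr7:28379229-28379408, minus strand, CArG box): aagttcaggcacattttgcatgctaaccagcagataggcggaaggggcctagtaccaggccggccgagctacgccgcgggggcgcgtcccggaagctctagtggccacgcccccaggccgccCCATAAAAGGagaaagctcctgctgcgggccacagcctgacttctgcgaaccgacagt
A match describes these letters only and is not a measured site of binding.

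The levels of these 4 genes differed in how regular they were. Dusp1, a phosphatase that inactivates MAP kinases, was read in 57 cells with medians of 500, 681 and 433 CPM. Btg2, an antiproliferative gene, was read in 29 cells of batch 1, 2 of batch 3 and 18 of batch 5, with medians of 639, 0 and 137 CPM. Zfp36, which codes for tristetraprolin, a factor that destabilises messages, was read in 41 cells (23, 3 and 15) with medians of 87.0, 17.9 and 23.3 CPM. Fos was read in 59.

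Clock genes were present in some cells. Of 18 members 5 passed the 50% rule, where 4.13% of all genes did, led by Nr1d1, Bhlhe40 and Per1. Nr1d1, a repressor of the clock, was read in 52 cells with medians of 107, 205 and 278 CPM. Per1 was read in 50, with medians of 192, 892 and 312 CPM. The labels give no time of day of collection.

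Markers of other cell types were looked for in every cell. The 50% rule was passed by 4.13% of all genes, so 0 or 1 member of a short list is near that share. Of 24 neuronal markers 12 passed the 50% rule, led by Snap25, a protein of synaptic vesicle release, with medians of 216, 382 and 787 CPM. Summed over the list, cells held a median of 1035 CPM in batch 1 (42.1 to 10208), 2515 CPM in batch 3 (905 to 3181) and 4698 CPM in batch 5 (535 to 12842). The in-slice libraries held up to 17881 CPM in batch 3 and 37357 CPM in batch 5. Of 18 markers of microglia and macrophages 0 passed the 50% rule and Ptprc was at 0 in all cells; the summed median was 10.7, 91.9 and 240 CPM, with a highest cell of 3615 CPM, against up to 82285 CPM in an in-slice library. Of 9 markers of oligodendrocyte progenitors 0 passed, with summed medians of 1.8, 0 and 29.5 CPM and highest cells of 1488, 481 and 2425 CPM, and Pdgfra, the defining receptor, was read in 2 cells. Of 24 vessel markers 1 passed, Bsg, and Flt1, Tek and Kcnj8 were at 0 in all cells. Fluid drawn with a cell and RNA of the cell itself cannot be told apart from these values, and the part of other cells in the neuronal reads was not tested.

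Oligodendrocyte markers set batch 5 apart. A gene was called past the fold between batches where the log2 ratio of mean CPM + 5 reached 2 in size, the higher batch had 20 CPM or more, detection at 100000 reads differed by 20 percentage points, and the ratio kept 1 without the highest cell of each batch. Mbp, myelin basic protein, was past it in batch 5 against both others. It was read in 23, 3 and 21 cells, with lowest, median and highest values of 0, 2.76 and 816 CPM in batch 1, 0, 19.2 and 636 CPM in batch 3, and 0, 1583 and 8419 CPM in batch 5. Mobp, a further myelin protein, was read in 17 of 23 cells of batch 5 with a median of 37.0 CPM, against 13 of 31 cells of batch 1, none over 15.2 CPM. Of the 12 members of the list, 4 could be tested between batches 1 and 5, and 3 of them, Mbp and Mobp included, were past the fold in batch 5, where 8.61% of all genes were. Mag, a myelin glycoprotein, was read in 2 of the 60 cells. In the in-slice libraries Mbp reached 4007 CPM in batch 3 and 3521 CPM in batch 5. Hemoglobin genes were higher in batch 5 too: Hbb-bs, a beta globin with a near-identical copy, was read in 2, 1 and 21 cells with a batch 5 median of 27.4 CPM. Ttr, transthyretin of the choroid plexus, was read in 12 cells of batch 5, up to 847 CPM, and in none of batches 1 and 3.

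Slc34a2 set batch 1 apart. It codes for a sodium-dependent phosphate transporter (GRCm38 5:53038081-53071664, plus strand), and was read in 31 of 31 cells of batch 1, with lowest, median and highest values of 129, 5648 and 27169 CPM. In batch 3 it was read in 0 of 6 cells, which allows up to 0.926 CPM in the pooled reads. In batch 5 it was read in 8 of 23 cells, at most at 6.65 CPM, and in 3 of 5 in-slice libraries, at most at 15.3 CPM. No cell of batch 1 overlapped any cell of the other batches. Gnas, the alpha subunit of the stimulatory G protein, was read in 29, 0 and 14 cells, with highest cells of 1834, 0 and 95.9 CPM. Ptgds, prostaglandin D synthase, was read in 20, 0 and 21 cells, with medians of 1.2, 0 and 145 CPM and a highest cell of 26376 CPM in batch 1. Mt2, the neighbour of Mt1 in function, had medians of 288, 15.1 and 13.9 CPM. Cebpd and Irf1, transcription factors of the acute phase and interferon response, were past the fold in batch 1 against batch 5, with highest cells of 2020 and 1270 CPM against 95.4 and 272 CPM. Cebpd was read in 18 and Irf1 in 14 cells of batch 1, so their medians there were 0.877 and 0 CPM.

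Some of the commonest genes of any cell were nearly missing in batch 1. Gapdh, the glycolytic enzyme often used as a reference, was read in 19 of 31 cells with a median of 1.84 CPM, against 5 of 6 cells and 266 CPM in batch 3 and 20 of 23 cells and 292 CPM in batch 5. Ppia, cyclophilin A, had medians of 8.53, 178 and 206 CPM, Hspa8, the constitutive heat shock cognate, 13.2, 258 and 388 CPM, and Actg1, cytoplasmic gamma actin, 0, 133 and 118 CPM. Meg3, a long noncoding RNA, was read in 3, 5 and 23 cells, with medians of 0, 437 and 219 CPM. Of the 30 general cellular genes 4 were past the fold in batch 3 against batch 1 (Actg1, Gapdh, Ppia and Tuba1a, where 5.62% of all genes were) and 4 in batch 5 (with Hspa8 in place of Tuba1a, where 8.61% were), and Gnas was past it the other way in both. Actb, by contrast, had medians of 1031, 813 and 1528 CPM. The table of batch 1 gives rows for reads that were not assigned. In its no-gRNA cells 17.3% of all reads stood there as multimapping, and these are in no gene count of that batch. The tables of batches 3 and 5 have no such row. Whether reads that match several copies were counted differently in the 3 tables was not tested, and the batch, its table and its cells cannot be told apart.

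**Figure D4:**
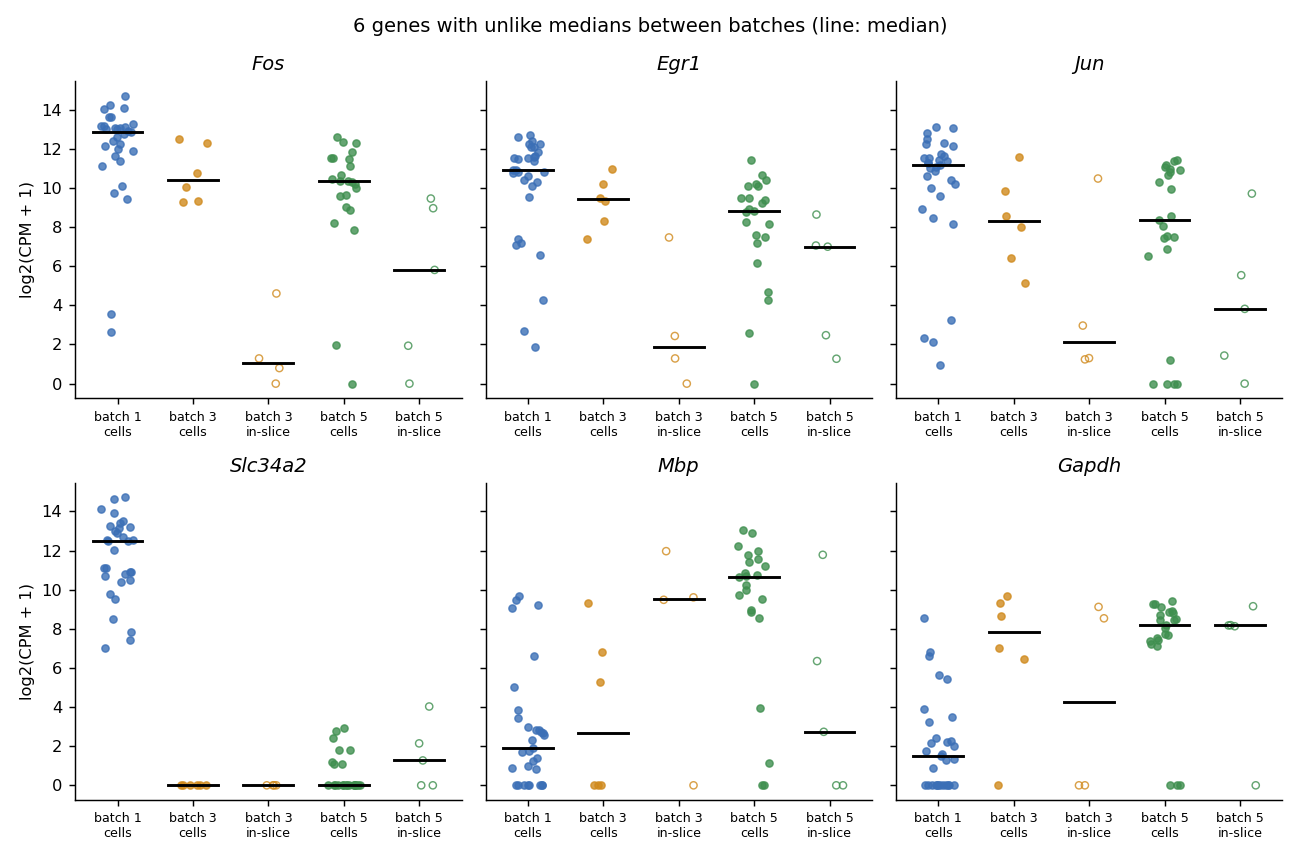
Each panel plots log2(CPM + 1) of a gene for every no-gRNA cell (filled) and in-slice library (open), with the median as a line. Slc34a2 is high in all cells of batch 1, from 129 CPM up, and at most 6.65 CPM in all other cells, Gapdh is near 0 in most cells of batch 1, Mbp is highest in batch 5, and Fos, Egr1 and Jun have their highest medians in batch 1 with overlapping cells.

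Over all genes, more were past the fold towards batch 5 than towards batch 1 or 3, while the direction between batches 1 and 3 turned with the settings. Between batches 1 and 3, 399 of 7094 genes were higher in batch 3 (5.62%) and 312 in batch 1 (4.4%), but 353 and 682 where detection was not thinned, and 135 and 148 with 20 CPM added in place of 5. Between batches 1 and 5, 658 of 7642 were higher in batch 5 (8.61%) and 67 in batch 1 (0.877%). Between batches 3 and 5, 1218 of 7325 were higher in batch 5 (16.6%) and 145 in batch 3 (1.98%). Of 34 astrocyte identity genes tested, 0 were called in either direction between batches 1 and 3 (10% of all genes were) and 0 between batches 1 and 5 (9.49% were). Between batches 3 and 5, 1 was called, Pla2g7 (18.6% were). The rule asks for 20 percentage points in detection, which a gene read in nearly every cell can hardly reach, and 12 of the 34 were regularly detected. These counts therefore cannot show that levels of identity genes were even between batches. Their median log2 ratio was -0.66 from batch 1 to batch 3, 0.06 from batch 1 to batch 5 and 0.72 from batch 3 to batch 5, close to the -0.58, 0.23 and 0.82 of all genes tested. Genes past the fold towards batch 3 included Nr4a2, an orphan nuclear receptor, with means of 36.8 CPM in batch 1 and 226 CPM in batch 3, and Arf4, a GTPase of the Golgi, with 9.52 and 234 CPM. Sgk1, a kinase induced by glucocorticoids, was higher in batch 3 than in batch 5, with means of 331 and 10.7 CPM, and Cwc22, a splicing factor, was lower, with 5.51 and 298 CPM. With 6 cells in batch 3, 3 of them shallow, each such call rests on few cells.

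**Figure D5:**
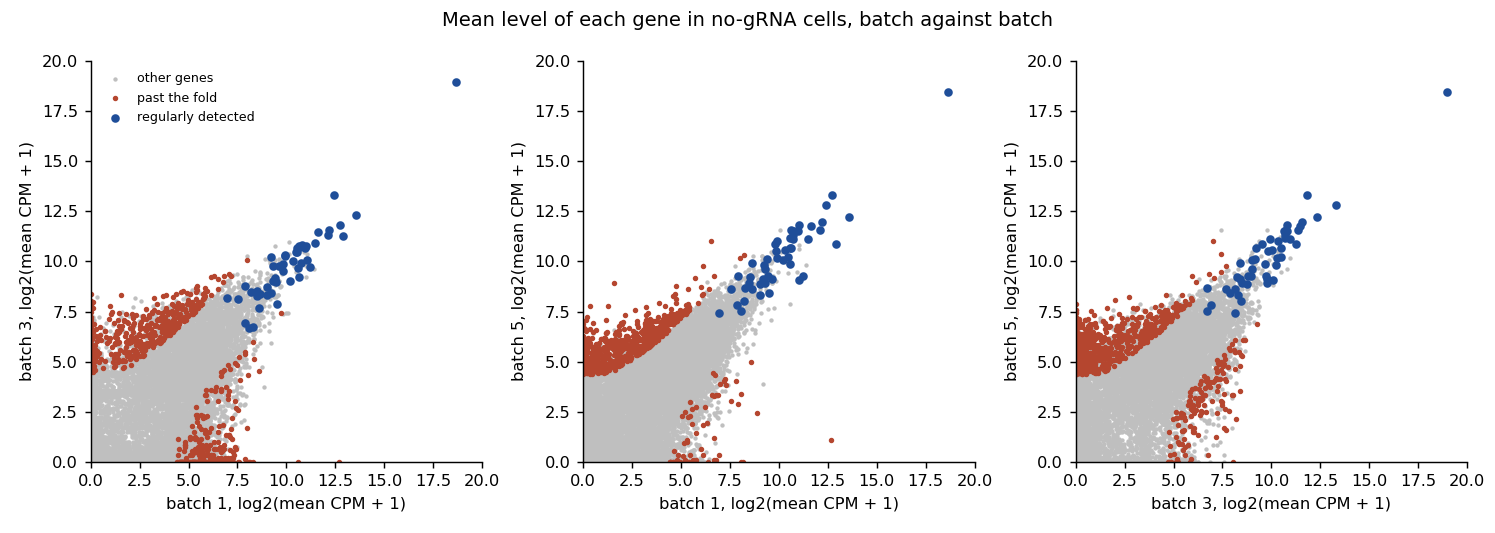
Each panel plots log2(mean CPM + 1) of every gene with a row in both tables, for batches 1 and 3, 1 and 5, and 3 and 5, with genes past the fold in red and the 49 regularly detected genes in blue. The regular genes lie along the diagonal at the high end, and most genes past the fold are at low levels in the other batch, above the diagonal in the panels with batch 5.

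Batch 5 held cells of 2 title series, and these differed as much as batches did. Of its 23 cells, 11 have titles that begin with AG and 12 titles that begin with 2AG. Genes per cell at 100000 reads had a median of 3099 in the AG cells (785 to 3654) and 4902 in the 2AG cells (1606 to 7005). Of 7829 genes, 1419 were past the fold in the 2AG cells (18.1%) and 83 in the AG cells (1.06%). Neuronal markers were among them, with 7 of 19 tested higher in the 2AG cells. Of 33 identity genes 0 were higher there and 1 in the AG cells, with the same limit of the rule for genes read in nearly every cell. The summed neuronal level had a median of 2195 CPM in the AG cells and 5698 CPM in the 2AG cells. Xist, the RNA of the inactive X chromosome of females, had a mean of 0.23 CPM in the AG cells and 342 CPM in the 2AG cells. At 10 reads or more, Xist was found in 10 of 12 2AG cells and genes of the Y chromosome in 8 of 11 AG cells, with no cell holding both. The labels do not give the sex of the animals, and series, sex and animal cannot be told apart. In batch 1, 8 cells held Xist alone and 10 the Y-linked genes alone, and in batch 3, 0 and 3.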

How the data were processed

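The tables of batches 1, 3 and 5 hold whole-number counts of reads per gene, as deposited by the authors, with 55487, 24304 and 27849 gene rows. The submitters' processing notes name STAR 2.6.0a and RSEM 1.3.0, with no role, and the genome GRCm38. How the counts were summed is not stated in the notes. The column names of batch 1 end in ReadsPerGene.out.tab, and its multimapping reads stand in a row apart from the genes. In batch 1, 76.3% of the reads of the no-gRNA cells stood in rows that name no gene and were left out. Depth ran from 15799 to 1607720 reads in nuclear genes per cell.

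CPM used those totals, and TPM the summed exon lengths of the GRCm38 annotation. Cells were thinned to 100000 reads (seed 17) where detection was compared. Pooled levels carry exact Poisson intervals at 95%. They cover counting error only, and 3 counts stand as the limit for a count of 0. Shares of cells carry no interval, because cells are not replicates. A gene was past the fold between batches at a log2 ratio of mean CPM + 5 of 2 or more, 20 CPM in the higher batch, 20 percentage points in detection, and a ratio of 1 without the highest cells. Only genes with a row in both tables were compared. No test was run, because no animal is named. The scripts were tested on simulated data.

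Genes were named by rule: the 6 markers, the 20 most abundant protein-coding genes, up to 20 regularly detected ones, the 10 most and 10 least variable of these, 5 per direction past the fold, up to 6 members of each gene list and those at 0, Sox9, Trps1 and the sex-linked genes. The ranked lists left out mitochondrial, ribosomal protein and predicted genes, and genes known to share reads with near-identical copies. Genes named outside this rule (CT010467.1, Gm15564, and single members of lists beyond the 6) were chosen after their values were seen. The values of some members that the rule names are not reported here. The cells, lists and rules were chosen with earlier results of these data known. Alternatives covered detection, depth, list length, pseudocount, TMM scaling with edgeR 4.0.16 (R 4.3.3), pooling and left-out cells. Python 3.11.15, pandas 2.3.3, numpy 2.4.6, scipy 1.17.1 and matplotlib 3.10.9 were used.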

Additional observations from a re-analysis of the deposited data

Results flagged for a closer look

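In batch 3, the highest of the 6 no-gRNA cells stood far from the others in 3 of 19 measures examined, by the gap to the next cell as a share of the range (limit 0.625). Trps1 was at 277 CPM in cell 2 and 63.3 CPM in the next (gap share 0.772). The summed oligodendrocyte markers were at 1511 CPM in the same cell against 168 CPM (0.889), and the summed progenitor markers at 481 CPM in cell 3 against 42.4 CPM (0.912). Chance flags about 1 in 20 groups.

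The table of batch 5 has a row named GFP, which no comparison uses. It held a read in 19 of the 23 no-gRNA cells, with a median of 85 reads and a highest value of 351, and in 2 of 5 in-slice libraries, up to 232 reads.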

How the results depend on the processing

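No paired analysis was possible because no test was run and the replicate numbers only follow the order of deposit. Of 165 values under alternative settings, 114 stayed within the limits set for a change and 51 moved, 6 of them pooled levels of Sox9 and Trps1 without their highest cell. The 49 regularly detected genes became 12 with 5 reads asked, 129 at 80% of cells, 20 in every cell, 25 after thinning, 92 without cells under 100000 reads and 106 without batch 3; leaving out each cell of batch 3 gave 49 to 64. The 56 shared abundant genes became 26 of the top 50 and 98 of the top 200. Rank agreement of batches 1 and 3, 1 and 5, and 3 and 5 rose to 0.45, 0.66 and 0.54 on mean log2 values and to 0.56, 0.71 and 0.61 with no minimum level.

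Counts past the fold fell most with a pseudocount of 20 CPM: 135 (higher in 3) and 148 (higher in 1) between batches 1 and 3, 110 (higher in 5) and 25 (higher in 1) between 1 and 5, and 267 (higher in 5) and 36 (higher in 3) between 3 and 5. Without thinned shares, 682 genes were higher in batch 1 than in 3 and 353 the other way, so the balance between these batches turned here and with the larger pseudocount; 122 were higher in batch 1 than in 5. TMM scaling gave 413 higher in batch 5 than in 1 and 250 higher in 3 than in 5. With AG cells alone, 362 and 502 were higher in batch 5 than in 1 and 3, 191 in batch 1 and 437 in batch 3; with 2AG cells alone, 1192 and 1867 were higher in batch 5. Chosen after seeing the data, leaving out ribosomal RNA genes gave 612 higher in batch 3 than in 1, and leaving out shallow cells 227 higher in 3 than in 5.

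The spread fell to 0.92 (batch 3, thinned), 0.89 (batch 3, without shallow cells) and 1.21 (batch 5, 2AG cells). Genes per cell were 2882 and 2026 in batches 1 and 3 when not thinned, and 1232 in batch 3 with 5 reads asked. Over the regular genes alone, correlation between cells was 0.41, 0.55 and 0.41 for batch 1 with 1, 3 and 5, 0.71 and 0.62 for batch 3 with 3 and 5, and 0.61 within batch 5; it was 0.21 within batch 1 when not thinned. The cause of these changes was not tested. With 6 cells, 3 of them under 100000 reads, batch 3 limits every count that asks for all batches.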
